A study of Homo sapiens with 4 samples.

Results

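The 42 collagen genes taken from a given list were examined in 2 peak lists of a CUT&RUN experiment, out of 20162 protein-coding genes, and 34 of the 42 held at least 1 peak of either list. A gene was given every peak that overlapped its body or 5 kb on each side, in the human genome build hg19 with the GENCODE release 44 annotation lifted to that build. SW-13 is an adrenocortical carcinoma cell line that expresses neither BRG1 nor BRM, the alternative ATPases of the BAF (SWI/SNF) chromatin remodelling complex. Stable lines carried doxycycline-inducible BRG1 with a V5 tag at its C terminus, either full length (iBRG1) or without the HSA domain (i∆HSA), the helicase/SANT-associated domain that carries actin and the actin-related protein of the complex. The lines were selected as individual clones, so a difference between the constructs cannot be told apart from a difference between clones. All 4 samples, 2 biological replicates of each construct, received doxycycline for 24 h and were profiled from 300000 cells with an antibody to V5, so no list without the tagged protein was compared here.

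CUT&RUN releases the DNA around an antibody-bound protein, and a peak is a stretch where such fragments pile up. Each construct had 1 list, with 24212 peaks for iBRG1 and 25371 for i∆HSA, and the replicates could not be separated in either. The counts and scores given here accordingly carry no replicate error and no test of one construct against the other, and intervals on shares (95%, Wilson) cover counting error only. Each peak carried a whole-number score whose scale was not given in the sources used here, so scores were read only within a list, as the percentage of that list's peaks at or below the score. The number of reads behind the peaks is unknown, and peak lists hold no transcripts, so neither the cell line's markers nor the expression of any collagen could be checked.

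Collagens are triple-helical proteins of the extracellular matrix. Fibril-forming collagens such as types I, III and V give connective tissue its tensile strength, type IV forms the network of basement membranes, fibril-associated collagens decorate the fibrils, and transmembrane collagens are anchored in the cell surface. Their genes are long and have many short exons, so peak counts were read beside those of genes of like length, meaning all other protein-coding genes from 20% shorter to 25% longer than the member.

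Most collagen peaks lay in introns and few at promoters. At most 18.8% of a list's collagen peaks overlapped a peak of the other list, near the 20.5% and 19.6% of the whole lists, and the intron shares were near those of genes of like length. The highest-scoring peak of a collagen gene in the iBRG1 list lay in intron 1 of COL5A2, which encodes an alpha chain of type V collagen, and the highest in the i∆HSA list lay in intron 17 of COL21A1, a fibril-associated collagen. The sequences below were chosen after their values were seen. The first set is shown because it holds the AP-1 letters at the high-scoring COL21A1 and COL5A2 peaks and at peaks of 3 other collagen genes. They are the plus strand of GRCh37, 5′ to 3′, at the centres of 6 of the 7 collagen peaks that held the letters TGACTCA or its complement TGAGTCA, the core recognised by AP-1 (FOS and JUN) factors. The capitals mark those letters, with 30 bases on each side. The COL21A1, COL5A2 and COL11A1 stretches are from iBRG1 peaks and the COL28A1 and COL12A1 stretches from i∆HSA peaks.
COL21A1 chr6:56229691-56229757: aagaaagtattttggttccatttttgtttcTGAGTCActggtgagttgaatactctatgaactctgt
COL5A2 chr2:190075198-190075264: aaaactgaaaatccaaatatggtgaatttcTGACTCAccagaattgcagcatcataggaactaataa
COL11A1 intron 41 chr1:103424074-103424140: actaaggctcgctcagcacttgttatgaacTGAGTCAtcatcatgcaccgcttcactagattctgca
COL11A1 intron 54 chr1:103371099-103371165: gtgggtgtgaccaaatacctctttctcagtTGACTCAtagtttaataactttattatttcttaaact
COL28A1 chr7:7478678-7478744: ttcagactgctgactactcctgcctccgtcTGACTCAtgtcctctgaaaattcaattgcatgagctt
COL12A1 chr6:75905832-75905898: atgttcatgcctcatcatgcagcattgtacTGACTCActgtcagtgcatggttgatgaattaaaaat

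The next stretches are the 121 bases at the centre of the overlap of both lists' peaks at COL19A1 and COL5A2. They are shown because they lie in 2 of the 4 highest-scoring i∆HSA peaks of the collagen genes and differ in repetition. Neither held the AP-1 letters or GGAATG, the core bound by TEAD factors, so neither has capitals. The COL19A1 stretch is a repeat of short A- and T-rich units (19.8% GC), while the COL5A2 stretch is not repetitive (38.8% GC).
COL19A1 intron 4 chr6:70631410-70631530: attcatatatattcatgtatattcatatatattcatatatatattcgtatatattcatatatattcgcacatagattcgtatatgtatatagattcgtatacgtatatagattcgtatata
COL5A2 intron 1 chr2:190015052-190015172: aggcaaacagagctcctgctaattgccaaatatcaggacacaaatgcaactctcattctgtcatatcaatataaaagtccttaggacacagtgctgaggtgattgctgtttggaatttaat

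Across the whole set, 27 of the 42 collagen genes (64.3%) held an iBRG1 peak and 24 (57.1%) held an i∆HSA peak. The background over all protein-coding genes was 44.0% for iBRG1 and 49.1% for i∆HSA. Collagen genes are longer than most, with a median of 133.4 kb against 27.2 kb, and genes of like length gave 27.7 members with an iBRG1 peak and 28.5 with an i∆HSA peak. These counts depended on the weak peaks. The methods state a minimum score of 5, but whether on the scale of these lists is not known. With only peaks of a score of at least 5, 9 members held an iBRG1 peak and 16 an i∆HSA peak, so the order of the 2 lists turned. Genes of like length gave 12.96 and 17.86 members. That limit kept 27.16% of all iBRG1 peaks and 41.15% of all i∆HSA peaks, and 18.1% and 28.2% of all protein-coding genes then held a peak. Whether the scores of the lists account for the turned order was not tested. The peaks numbered 60 in the iBRG1 list and 48 in the i∆HSA list, where like-length genes gave 71.0 and 69.9, a ratio of 0.846 for iBRG1 and 0.686 for i∆HSA. With a score of at least 5 the peaks numbered 14 and 23 and the order of the ratios turned too, to 0.641 for iBRG1 and 0.780 for i∆HSA, both still below 1. Without COL21A1, which held the most peaks, the ratios over all scores were 0.740 and 0.657. In the iBRG1 list 16 members were above and 26 below the mean of their like-length genes, and in the i∆HSA list 12 were above and 30 below.

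**Figure D1:**
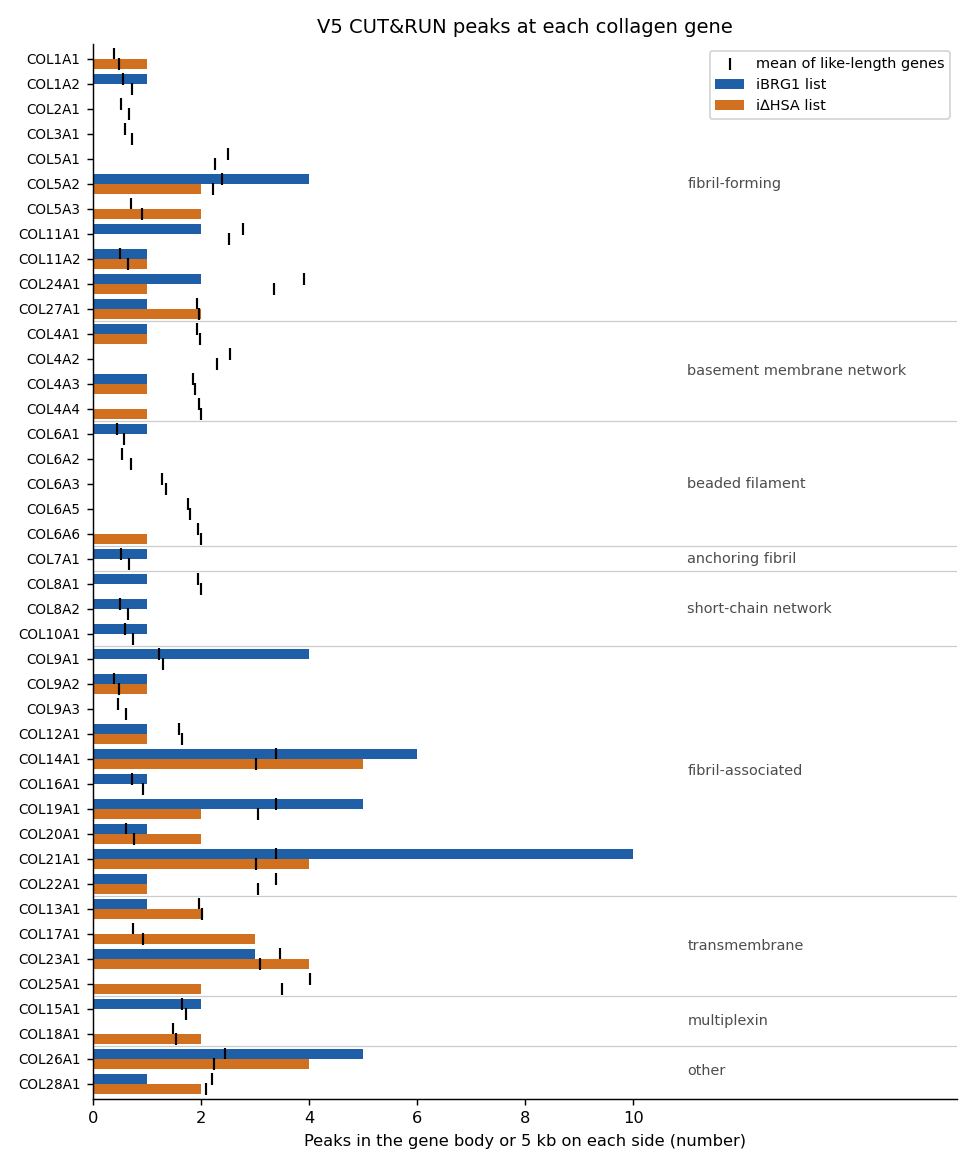
Number of peaks in the gene body or 5 kb on each side for each of the 42 collagen genes, grouped by the kind of collagen. Blue (upper) bars are the iBRG1 list, orange (lower) bars the i∆HSA list, and each black tick is the mean of protein-coding genes of like length in that list. COL21A1 reaches 10 iBRG1 peaks, and 8 genes have no bar.

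Peaks of both lists fell at 17 members (40.5%, background 30.0% of protein-coding genes), iBRG1 peaks alone at 10 (23.8%, background 14.1%) and i∆HSA peaks alone at 7 (16.7%, background 19.1%), while 8 members (19.0%, background 36.9%) held neither. Members with both had the highest median length, 179.7 kb, against 46.0 kb for iBRG1 alone and 108.6 kb for i∆HSA alone. The 8 members with no peak in either list were COL2A1, COL3A1, COL4A2, COL5A1, COL6A2, COL6A3, COL6A5 and COL9A3. Genes of like length gave 7.52 members with neither, near the 8 found, 21.7 with both, 6.001 with iBRG1 alone and 6.82 with i∆HSA alone.

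**Figure D2:**
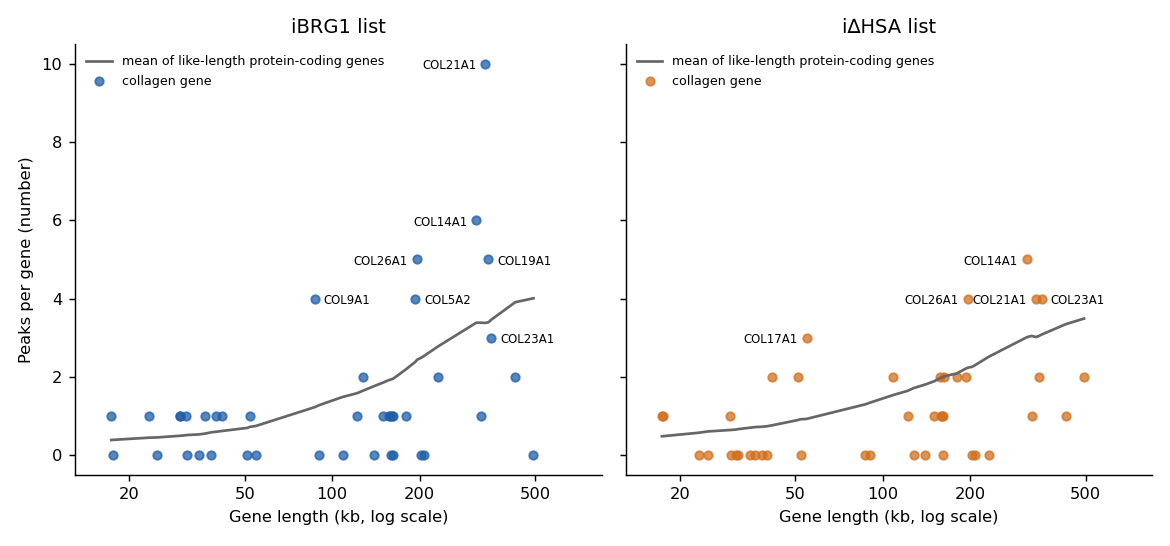
Peaks per gene against gene length (kb, log scale), one panel per list. Points are the 42 collagen genes and the line joins the mean peak count of protein-coding genes of like length at each collagen gene's length. COL21A1, COL9A1 and COL26A1 lie above the iBRG1 line and COL17A1 lies above the i∆HSA line, with 3 peaks where the line is at 0.927.

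The kinds of collagen differed in how many peaks they held. The 10 fibril-associated members held 30 iBRG1 peaks against 18.5 in genes of like length, and 16 i∆HSA peaks against 17.8. The 4 transmembrane members went the other way, with 4 iBRG1 peaks against 10.2 and 11 i∆HSA peaks against 9.51. The 11 fibril-forming members held 11 iBRG1 peaks against 16.7 and 9 i∆HSA peaks against 16.4. Peaks were few at the basement membrane chains and at type VI. The 4 type IV genes held 2 iBRG1 peaks against 8.27 and 3 i∆HSA peaks against 8.15, and the 5 type VI (beaded filament) genes held 1 of each list against 5.96 and 6.41. The 3 short-chain genes, COL8A1, COL8A2 and COL10A1, held 1 iBRG1 peak each and no i∆HSA peak, with 3.04 and 3.38 peaks in genes of like length. These are counts over all scores in 1 list per construct, and the difference between kinds of collagen was not tested. Most fibril-associated peaks of either list scored below 5, and counts by kind at a score of at least 5 are not given here. Of the 30 fibril-associated iBRG1 peaks, 10 were at COL21A1 alone.

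Peaks near a transcription start, within 1 kb of any annotated start of the gene, were found at 5 members in each list (11.9%), and 10 members had one in either list. The background was 18.2% of protein-coding genes for iBRG1 and 20.9% for i∆HSA, and genes of like length gave 9.44 and 10.4 members. No collagen gene had a promoter peak in both lists, which 7.69% of all protein-coding genes did. In the iBRG1 list the genes were COL6A1, COL7A1, COL8A1, COL9A2 and COL14A1, and in the i∆HSA list they were COL1A1, COL17A1, COL19A1, COL21A1 and COL23A1. The promoter peaks had scores of 1 or 2 for iBRG1 and 1 to 5 for i∆HSA, where the median scores of the lists were 2 and 4. The highest of them were at or above 51.0% of the iBRG1 list and 67.3% of the i∆HSA list.

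Only 4 of these peaks reached within 1 kb of the canonical start, the one the annotation prefers. COL6A1, a type VI chain, had an iBRG1 peak of score 2 with its midpoint 0.662 kb before the start. The other 3 were i∆HSA peaks. At COL1A1, the alpha 1 chain of type I collagen, a peak of score 3 spanned chr17:48276008-48279709, the widest i∆HSA peak of the set at 3702 bp, and ran over the start into intron 1. At COL19A1 a peak of score 3 was centred 0.592 kb before the start and also overlapped the promoter of LMBRD1, a lysosomal cobalamin export gene on the other side, so either gene could be its reference. At COL23A1 a peak of score 2 was centred 0.579 kb before the start. The peak at COL8A1, which encodes a short-chain collagen of vessel walls, was centred 1.27 kb before the canonical start, and the others were at internal starts, in intron 37 of COL7A1, intron 21 of COL9A2, intron 44 of COL14A1, intron 18 of COL17A1 and intron 13 of COL21A1.

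COL4A1 and COL4A2 are transcribed away from each other from starts 127 bp apart, and neither list had a peak within 1 kb of any start of either gene.

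Introns held 45 of the 60 iBRG1 peaks (75.0%) and 33 of the 48 i∆HSA peaks (68.8%), against 54.7% and 51.2% of peak-gene pairs over all protein-coding genes. Genes of like length were closer to the collagen genes than all genes were, with 68.8% and 66.1% of their pairs in introns. The promoter share was 8.33% for iBRG1 against 15.4% in like-length genes, and 10.4% for i∆HSA against 17.0%. Exons held 6 peaks in each list and the 5 kb flanks held 4 in each. The median distance of a collagen peak's midpoint from the canonical start was 82.9 kb in the iBRG1 list and 65.7 kb in the i∆HSA list.

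**Figure D3:**
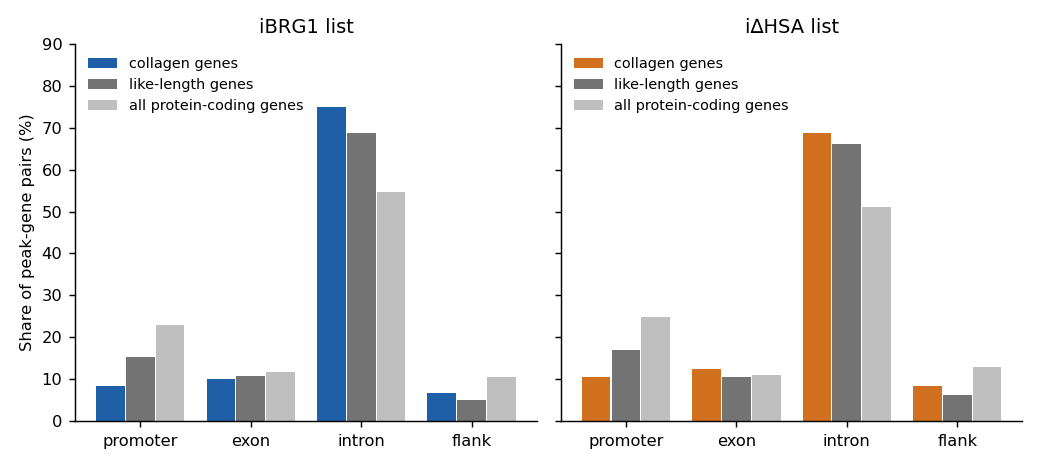
Share of peak-gene pairs (%) by place, one panel per list, for collagen genes, genes of like length and all protein-coding genes. Promoter is within 1 kb of any annotated start and flank is the 5 kb outside the gene. The promoter bar of the collagen genes is the lowest of its group of bars in both panels, at 8.33% for iBRG1 and 10.4% for i∆HSA.

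COL21A1 held the most peaks. Of its 10 iBRG1 peaks, 6 lay before the canonical start at chr6:56112378, inside longer annotated transcripts of the gene, within 91.0 kb. Going away from that start, these 6 were centred 46.3, 87.4, 100.6, 117.3, 123.1 and 134.5 kb before it, with scores of 3, 12, 3, 28, 22 and 3. The peak of score 28 at chr6:56228991-56230366 was at or above 98.8% of the iBRG1 list, held the AP-1 letters shown above, and lay 1.90 kb from the nearest i∆HSA peak without overlapping it. Among the 517 genes of like length, 95.4% had fewer than 10 iBRG1 peaks. The i∆HSA list had 4 peaks at the gene, where 64.4% of like-length genes had fewer, and 2 of these lay in the same upstream stretch, 78.5 and 121.7 kb before the start with scores of 19 and 7.

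COL19A1 and COL9A1, both fibril-associated, lie 3.57 kb apart on chromosome 6 and together span 436.3 kb. This stretch held 9 iBRG1 peaks and 2 i∆HSA peaks. COL9A1, a chain of the type IX collagen of cartilage, held 4 iBRG1 peaks with scores of 1 to 3 and no i∆HSA peak, and 95.01% of 1822 like-length genes had fewer than 4 in the iBRG1 list while 68.2% had at least 1 in the i∆HSA list. COL19A1 held 5 iBRG1 peaks with scores of 1 to 4, and its i∆HSA peaks scored 3 and 101.

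COL17A1 showed the opposite distribution. It encodes a transmembrane collagen of hemidesmosomes, and held no iBRG1 peak and 3 i∆HSA peaks, with scores of 23 at exon 48, 5 in intron 18 and 11 at 4.61 kb before the start. Of 2293 like-length genes, 93.2% had fewer than 3 i∆HSA peaks and 49.5% had an iBRG1 peak. The nearest iBRG1 peak lay 2.17 kb from the last of these and 36.4 and 56.0 kb from the others. COL18A1 (scores 2 and 29), COL25A1 (1 and 2) and COL5A3 (4 and 5) also held 2 i∆HSA peaks each and no iBRG1 peak, and COL11A1 (3 and 8) and COL15A1 (4 and 7) held 2 iBRG1 peaks each and no i∆HSA peak. The COL18A1 peak of score 29 also overlapped the body of SLC19A1. COL21A1, COL9A1 and COL17A1 were singled out from 42 members in 2 lists for their counts. Their shares of like-length genes with fewer peaks are therefore not read as unusual.

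**Figure D4:**
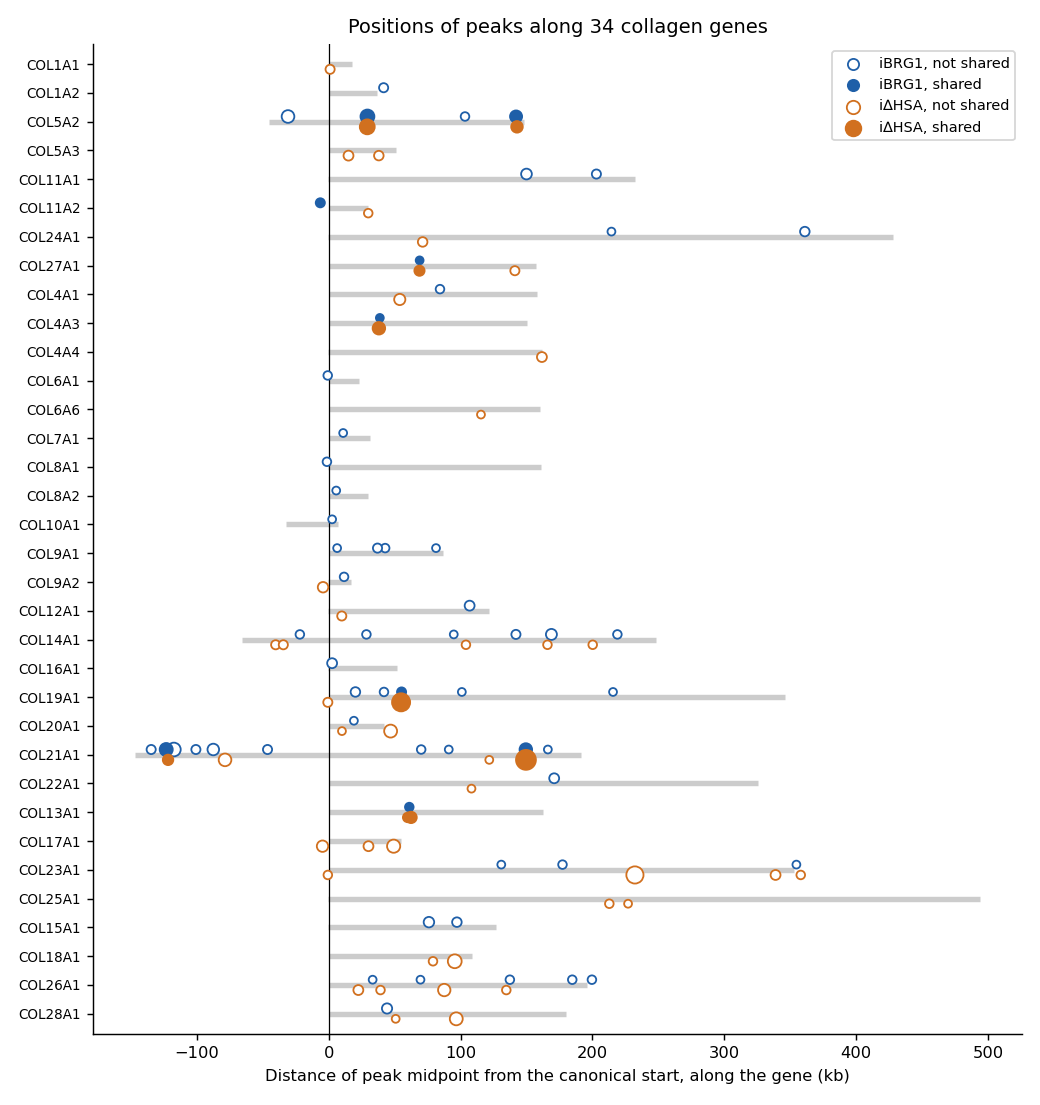
Position of each peak's midpoint along the 34 collagen genes with a peak (kb from the canonical start, negative before it). Grey bars are the annotated gene bodies, filled circles overlap a peak of the other list, open circles do not, and circle area grows with the score within a list. Filled circles sit at 7 genes, for COL11A2 in the iBRG1 list only, and 6 iBRG1 circles lie before the start of COL21A1.

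Of the iBRG1 collagen peaks, 9 of 60 (15.0%, interval 8.10 to 26.1) overlapped an i∆HSA peak by at least 1 bp, where 20.5% of the whole iBRG1 list did. Of the i∆HSA collagen peaks, 9 of 48 (18.8%, interval 10.2 to 31.9) overlapped an iBRG1 peak, where 19.6% of the whole list did, and both intervals hold the share of their list. With a score of at least 5 the shares were 28.6% (4 of 14) and 17.4% (4 of 23), against 34.8% and 21.9% of the lists so limited. The highest-scoring of these in the iBRG1 list was the COL5A2 intron 1 peak, at chr2:190013993-190016095 with a score of 30 in the iBRG1 list and at chr2:190014129-190016247 with a score of 42 in the i∆HSA list. These were at or above 99.0% and 97.2% of their lists. In the i∆HSA list the shared peaks at COL21A1 intron 17 (153) and COL19A1 intron 4 (101) scored above it. A further COL5A2 pair lay in intron 51, with scores of 15 and 12. COL21A1 had a pair upstream (22 and 7) and one in intron 17 (18 and 153).

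Some overlaps ranked differently in their lists, in either direction. The upstream COL21A1 pair was at or above 97.7% of the iBRG1 list (score 22) and 76.9% of the i∆HSA list (7). The COL5A2 intron 51 pair was at or above 94.9% (15) and 86.9% (12). Others ranked higher in the i∆HSA list. COL19A1 intron 4 was at or above 64.6% of the iBRG1 list (score 3) and 99.4% of the i∆HSA list (101), COL4A3 intron 1 28.6% (1) and 91.6% (18), and COL27A1 intron 14 28.6% (1) and 72.8% (6). In COL13A1 intron 2, 1 iBRG1 peak of score 2 (51.0%) covered parts of 2 i∆HSA peaks of scores 4 (58.9%) and 11 (85.7%). Beside COL11A2 the overlap was a 5975 bp iBRG1 peak of score 3, with an i∆HSA partner of score 5, at the promoters of RXRB and SLC39A7, neighbours that encode a nuclear receptor and a zinc transporter, so it is at those genes rather than at the collagen. In all, 7 members held a shared peak, COL11A2 in the iBRG1 list only since its partner lay outside the 5 kb flank. Among the 17 members with peaks of both lists, 10 held no shared peak. No matching gene counts are given here for other genes, so neither number is read as a collagen result. Peaks without an overlap lay a median of 36.9 kb (iBRG1) and 26.7 kb (i∆HSA) from the nearest peak of the other list, and 6 in each list lay within 5 kb of one. Shared peaks scored a median of 3 against 2 for the others in the iBRG1 list, and 12 against 3 in the i∆HSA list.

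Short repeats coincided with the highest i∆HSA scores. The measure was the number of distinct 6-letter words in the 121 bases at a peak's centre, out of 116 possible, and a peak with fewer than 58 was counted as repetitive. That limit was set after the sequences were seen. In the i∆HSA list 7 of 48 collagen peaks (14.6%) were repetitive, against 6.13% of all i∆HSA peaks, and in the iBRG1 list 3 of 60 (5.00%) against 0.876%. The 3 highest i∆HSA scores, 153 at COL21A1, 101 at COL19A1 and 80 at COL23A1, had 16, 22 and 37 distinct words. COL18A1 (score 29, 30 words) and COL20A1 (score 21, 53 words) were also among the 10 highest, so 5 of the 10 highest i∆HSA peaks were repetitive and 1 of the 10 highest iBRG1 peaks was, COL21A1 intron 17 with 14 words.

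Repetitive i∆HSA collagen peaks had a median score of 29 against 3 for the rest. The same direction was seen over the whole i∆HSA list, with a median of 14 against 4 for the rest, and in the iBRG1 list the medians were 3 against 2. Short reads from such stretches can be placed at many positions, and how such reads were handled is not given in the sources used here. Without the repetitive peaks, 25 members held an iBRG1 peak, 22 an i∆HSA peak and 14 both, and the shared shares were 10.5% and 14.6%. The ratios of peak counts to like-length genes were then 0.808 and 0.612. Over the whole lists, 161 of 212 repetitive iBRG1 peaks and 202 of 1554 repetitive i∆HSA peaks were shared. The shared shares of the lists without repetitive peaks are not given here, so the lower shares are not read as a collagen result. Whether the repeats account for the scores was not tested. The COL5A2 intron 1 peaks were not repetitive, with scores of 30 and 42.

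**Figure D5:**
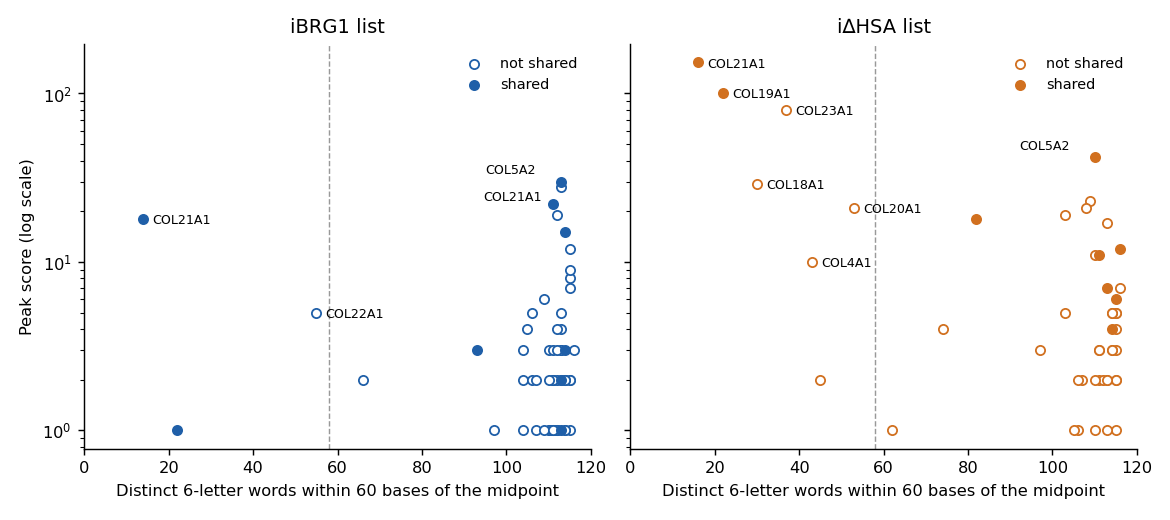
Score of each collagen peak (log scale) against the number of distinct 6-letter words in the 121 bases at its centre, one panel per list. Points left of the dashed line at 58 words are repetitive, and filled points overlap a peak of the other list. In the i∆HSA panel COL21A1, COL19A1 and COL23A1 lie at the upper left, with 16, 22 and 37 words and scores of 153, 101 and 80.

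The AP-1 letters lay within 100 bp of the midpoint of 5 of 60 iBRG1 collagen peaks (8.33%, interval 3.61 to 18.1), against 8.89% of the iBRG1 list. In the i∆HSA list it was 2 of 48 (4.17%, interval 1.15 to 13.98), against 6.18%. The collagen peaks were thus near their lists in both cases. Within 250 bp the shares were 21.7% and 12.5%, against 19.6% and 13.9% of the lists, and with a score of at least 5 they were 21.4% (3 of 14) and 4.35% (1 of 23), against 13.5% and 8.05%. The 5 iBRG1 peaks were at COL21A1 (score 28), COL5A2 (19, 30.8 kb before the canonical start), COL11A1 (8 and 3) and COL14A1 (2), and the 2 i∆HSA peaks at COL28A1 (21) and COL12A1 (3). None of these 7 peaks overlapped a peak of the other list, where 20.5% of all iBRG1 peaks and 19.6% of all i∆HSA peaks did. The letters GGAATG, the TEAD core, searched on both strands, were at 5 iBRG1 peaks (8.33% against 12.2% of the list) and 8 i∆HSA peaks (16.7%, interval 8.70 to 29.6, against 10.2%).

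None of the peaks at COL14A1, COL26A1, COL23A1, COL24A1 and COL25A1 was shared, and these genes are grouped here for that reason. It is not read as a result about them, since only 7 of the 34 members with a peak held a shared one. Over the whole lists 20.5% of iBRG1 and 19.6% of i∆HSA peaks were shared. COL14A1, a fibril-associated collagen, held 6 iBRG1 and 5 i∆HSA peaks, with scores of 1 to 9 and 2 to 3, and an iBRG1 and an i∆HSA peak in its intron 34 lay 0.607 kb apart. COL26A1 held 5 and 4 peaks, of which the highest was an i∆HSA peak of score 17 in intron 3. COL23A1 held 3 iBRG1 peaks of score 1 or 2 beside its i∆HSA peaks of 2, 5, 80 and 2. One of the i∆HSA peaks of score 2 lay in the flank, 357.9 kb from the COL23A1 start, and overlapped the promoter of PHYKPL. COL24A1, at 427.7 kb, held 2 iBRG1 peaks and 1 i∆HSA peak, where genes of like length had 3.91 and 3.35. COL25A1, the longest at 494.0 kb, held no iBRG1 peak, and 90.5% of 305 genes of like length held at least 1.

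COL1A2, which encodes the other chain of type I collagen, held 1 iBRG1 peak of score 3 in the flank beyond its end, 41.7 kb from its start, and no i∆HSA peak, so the type I genes shared no list. COL4A1 held 1 peak of each list (scores 2 and 10), COL12A1 (5 and 3), COL22A1 (5 and 1) and COL9A2 (2 and 7) likewise, and none of these pairs overlapped. COL20A1 held 1 iBRG1 peak (1) and 2 i∆HSA peaks (1 and 21), and COL28A1 held 1 (6) and 2 (21 and 1). COL8A2 and COL10A1 each held 1 iBRG1 peak of score 1 and COL16A1 1 of score 5, while COL4A4 held 1 i∆HSA peak of score 5 and COL6A6 1 of score 1. The COL10A1 peak also overlapped the body of NT5DC1, and the COL4A4 peak overlapped only the far end of its gene. The COL16A1 and COL4A4 peaks were at or above 78.3% and 67.3% of their lists, while those at COL8A2 and COL10A1 were at or above 28.6% and that at COL6A6 3.28%. COL11A2, a fibril-forming chain of cartilage, held an i∆HSA peak of score 2 at its far end.

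In score, the collagen peaks as a whole were like their lists, with a median of 2 in the iBRG1 list, the same as all iBRG1 peaks, and of 4 in the i∆HSA list, the same as all i∆HSA peaks. The iBRG1 collagen peaks were narrower, with a median width of 923 bp against 1321 bp, and the i∆HSA collagen peaks had 1249 bp against 1318 bp. The median GC content was 38.6% in both the collagen peaks and the list for iBRG1, and 38.8% against 38.2% for i∆HSA.

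The genes that make, export, trim and bind collagen were read beside the collagen genes, as 43 genes in 5 roles. Of these 25 (58.1%) held an iBRG1 peak and 23 (53.5%) an i∆HSA peak, against 44.0% and 49.1% of all protein-coding genes and 22.5 and 24.5 genes from those of like length. Both lists reached 14 (32.6%, background 30.0%) and neither reached 9 (20.9%, background 36.9%). Promoter peaks were found at 7 genes (16.3%, background 18.2%) in the iBRG1 list and 11 (25.6%, background 20.9%) in the i∆HSA list, where genes of like length gave 9.06 and 10.1. The 15 genes of prolyl and lysyl modification, which hydroxylate and glycosylate the chains, held iBRG1 peaks at 10 and i∆HSA peaks at 9. Of the 6 chaperone and export genes 4 and 3 held one, of the 8 propeptide removal genes 3 and 3, of the 5 cross-linking genes 3 and 2, and of the 9 collagen receptors 5 and 6. SERPINH1, the collagen-specific chaperone HSP47, and LOX, the lysyl oxidase, held no peak, and these and the genes named next, other than DDR1, were picked after their values were seen.

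DDR1, a receptor tyrosine kinase that binds collagen, was the 1 gene of the 43 with a promoter peak in both lists (background 7.69% of protein-coding genes). It held 1 iBRG1 peak of score 2 and 2 i∆HSA peaks of at most 4. Shared peaks were found at 7 of the 43 genes, a count for which no background is given here. Among them was COLGALT2, a collagen galactosyltransferase, with a best score of 23 in the iBRG1 list and 32 in the i∆HSA list, each list having a shared peak at the gene. ITGA1, the alpha 1 integrin subunit, held 3 iBRG1 peaks of up to 17 and no i∆HSA peak.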

How the data were processed

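V5 CUT&RUN was measured in 4 samples, 2 replicates each of iBRG1 and i∆HSA. Per the labels and the study's methods the authors trimmed reads with Cutadapt, aligned them with Bowtie2, handled duplicates with Picard and SAMtools, and called peaks with MACS2 (version 2.2 in the submitters' processing notes) on hg19, with peaks of negative controls removed. The deposited files give a whole-number score per peak. A minimum score of 5 is stated in the methods, yet the lists held lower scores. Their peak names run to 340229 and 286854, so each is a part of a longer call set. The paper reports fewer peaks for each construct than these lists hold.

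Peaks were assigned to genes with pysam 0.24.0 and pandas 2.3.3 (Python 3.11.15), tested on simulated peaks. Sequence came from GRCh37, and some stretches are not reported here. Every member was accounted for. Those with a promoter peak, one of the 10 highest peak counts or one of the 10 highest-scoring peaks of a list are described. Members without a peak are only named, and the rest are given by counts or scores, though not every peak is listed. The members, the pathway list and the limits were chosen with earlier results of these data known. Alternatives were a score of at least 5, flanks of 0 and 10 kb, promoters of 3 kb, protein-coding starts, 50% reciprocal overlap, other length ranges (0.9 to 1.11 times, or 0.5 to 2 times on the same chromosome), assignment by midpoint and motif windows of 250 bp. No test was run, as each construct has 1 list. Depth is unknown.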

Additional observations from a re-analysis of the deposited data

How the results depend on the processing

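A score of at least 5 moved the most values. It left 9 members with an iBRG1 peak and 16 with an i∆HSA peak, 14 iBRG1 and 23 i∆HSA peaks, 3 members with both, and promoter peaks at 0 members for iBRG1 and 1 for i∆HSA, with 18.1% and 28.2% of all protein-coding genes holding a peak. Genes of like length gave 12.96 and 17.86 members with a peak at this score, and 3.51 and 6.06 with a promoter peak. The shared share became 28.6% for iBRG1 and 17.4% for i∆HSA, the AP-1 share 21.4% and 4.35%, and the ratio to like-length genes 0.641 and 0.780. So the order of the constructs turned for members, peaks, shared share and ratio, and the iBRG1 AP-1 share went from below to above its list. The limit kept a smaller part of the iBRG1 list (27.16%) than of the i∆HSA list (41.15%). Promoters of 3 kb gave 10 (iBRG1) and 9 (i∆HSA) members, and starts of protein-coding transcripts only gave 3 and 3. Overlap of 50% of both peaks left 5.00% and 6.25% shared. No background is given here for these promoter and overlap settings, or for the 3 members with both. AP-1 letters within 250 bp were at 21.7% of iBRG1 and 12.5% of i∆HSA collagen peaks, against 19.6% and 13.9% of the lists. With no flank 37.7% and 41.1% of protein-coding genes held a peak, and with 10 kb 49.2% and 55.2%. The settings without COL21A1 and without repetitive peaks were chosen after seeing the data. No paired analysis was possible because the replicates of a construct cannot be separated within its single list, and leaving out a replicate was not possible for the same reason.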
